A study of Rattus norvegicus with 4 samples.

Results

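Predicted transcripts that were at least doubled after transfection of a miR-125a-3p mimic were described in cultured rat oligodendrocyte precursor cells. These cells, called OPCs, divide and mature into the oligodendrocytes that wrap axons in myelin. A predicted transcript here is one whose array identifier is a computational RefSeq model (XM for a model mRNA, XR for a model non-coding RNA) or an Ensembl transcript (ENSRNOT). The 102 members, of 21871 predicted transcripts and 45533 transcript features measured on all arrays, were chosen by the same measured values that are described below. A member was well above background, by the scanner software's flag, on both miR-125a-3p arrays, and both of these arrays lay above both miR-neg arrays. Its mean log2 signal, relative to the 75th percentile of each array, was at least 1 higher in the miR-125a-3p group. These differences are therefore a description and carry no test.

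The miR-125a-3p group (2 samples) received mimics of this microRNA at 50 nM, and the miR-neg group (2 samples) received a negative control RNA at the same dose by the same lipid transfection. Both groups came from rat cortex at postnatal day 2, grew with bFGF and PDGF for 3 days and were lysed 48 h after transfection. No gene was deleted in either group. The labels state neither strain nor how many animals or cultures the samples came from, so spread between replicates may be technical.

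A microRNA pairs with transcripts through its seed, near its 5′ end, and is known for lowering the stability and translation of the transcripts it pairs with. The members, which were higher with the mimic, lie in the direction opposite to such direct lowering. Model transcripts are assembled by annotation pipelines from genome sequence and aligned RNA, and many are withdrawn or merged into named genes in later releases. The mature rat miR-125a-3p, shown because it is the molecule that the mimic copies, is given from RefSeq (GRCr8, chromosome 1, plus strand, 67350727 to 67350748) with the seed, bases 2 to 8, in capitals. The sequence of the mimic itself is not given in the labels.

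rno-miR-125a-3p: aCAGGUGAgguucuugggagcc

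The arrays carried their 75th percentile at a processed signal of 702 and 717 for miR-125a-3p and at 745 and 679 for miR-neg. They had 28138 and 26902 features well above background for miR-125a-3p, against 26332 and 26822 for miR-neg. All 4 arrays shared 1 slide, where the groups held different positions, so that slide position and group cannot be told apart. Marker genes of the cell types that such cultures can hold were read with limma over 27250 features, at an adjusted p of 0.05. Markers above background on fewer than 2 arrays were not in the fit and could not pass. Besides those given below as above background on 0 arrays, these were Csf1r, Ctss, Rgs5, Cldn5 and Flt1, each on 1 array. Of 10 OPC markers, 9 were measured, each above background on at least 1 array, and 0 passed. Their summed level relative to the 75th percentile was 358 and 377 in miR-125a-3p against 356 and 377 in miR-neg. Of 15 astrocyte markers, 13 lay above 0, 1 passed the test upward (Aldh1l1, a log2 difference of 1.89), and their summed level was 222 and 224 in miR-125a-3p against 193 and 206 in miR-neg, with Gjb6 above background on 0 arrays. Of 15 microglia and macrophage markers, 11 lay above 0, 1 passed upward (C1qa, 1.44), the median log2 difference was 1.27, and the sums were 4.66 and 5.16 in miR-125a-3p against 4.05 and 4.62 in miR-neg, with Ptprc above background on 0 arrays. That median includes Csf1r (1.38) and Ctss (1.94), which were not tested. Of 12 neuronal markers, 10 lay above 0 and 0 passed, with sums of 27.5 and 27.8 in miR-125a-3p against 23.8 and 24.3 in miR-neg and Slc17a6 above background on 0 arrays. Of 15 fibroblast, pericyte and endothelial markers, 10 lay above 0 and 1 passed upward (Tagln, 1.21), with sums of 4.67 and 4.94 in miR-125a-3p against 3.72 and 4.19 in miR-neg and Dcn, Lum and Pecam1 above background on 0 arrays. Of 12 myelin markers, 2 lay above 0 and 1 passed downward (Aspa, -1.55), with sums of 572 and 546 in miR-125a-3p against 814 and 842 in miR-neg, and Ermn and Mal were above background on 0 arrays. The counts above 0 include Gjb6, Dcn, Slc17a6 and Mal, each above background on 0 arrays, and Csf1r, Ctss and Rgs5, each on 1 array. Among all tested features, 51.6% lay above 0. The part of these other cell types in the members' values was not tested. In such bulk RNA, more cells of a type and more RNA per cell cannot be told apart.

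The members were dim. Their median processed signals were 27.4 and 36.2 in miR-125a-3p, against 14.6 and 13.1 in miR-neg. All features above background on both miR-125a-3p arrays had medians of 447 and 459.5 in miR-125a-3p and of 476 and 433 in miR-neg. The lowest signal that the software called well above background was 14.8 and 17.0 in miR-125a-3p and 20.2 and 15.9 in miR-neg, so most members sat within a few-fold of the detection limit. Of the 102 members, 101 lay below the 75th percentile on each of the 4 arrays. In miR-neg, 68 members were above background on 0 arrays, 16 on 1 array and 18 on both. Detection in miR-125a-3p only favours a difference between the groups but does not force a doubling. Of all 443 features above background on both miR-125a-3p arrays and on 0 miR-neg arrays, 130 (29.3%) met the rule, whatever their class.

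**Figure D1:**
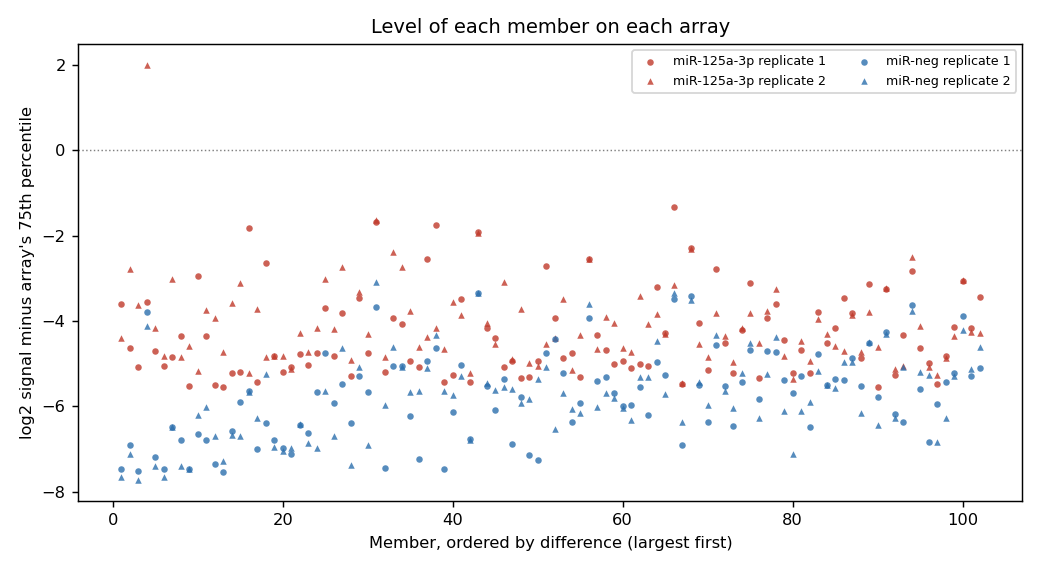
Log2 signal minus the array's 75th percentile for the 102 members (horizontal axis, ordered by the difference between groups), with miR-125a-3p replicates in red and miR-neg replicates in blue. The red points lie above the blue points of the same member, as the rule requires, and 1 red triangle, XM_008759032 in miR-125a-3p replicate 2, lies above the dotted line at 0.

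The log2 difference between the group means ranged from 1.00 to 3.56, with a median of 1.31. It was at least 2 for 20 members and below 1.2 for 40, so many members lay close to the doubling that chose them. The 3 members just inside it were XR_352105, XM_006227546 and XM_008768871, at 1.001, 1.006 and 1.007. The 3 predicted transcripts just outside, which met every other part of the rule, were XM_008764109, XM_008761539 and XM_008763897, at 0.995, 0.982 and 0.976. In the same limma fit, 16 of the 102 members passed an adjusted p of 0.05, which is a count and no test of the members, since the rule fixed their direction and chose them on these arrays. Of these, 11 were above background on 0 miR-neg arrays, 1 on 1 array and 4 on both, the last being XR_600911, XM_006223561, XM_008760464 and XM_006223955. Of all features tested, 0.617% passed and 0.33% passed upward, and since the same contrast chose the members, their count is not read against these shares. With any 1 of the 4 arrays left out, which leaves 1 sample in a group that is assumed to vary like the other group, these calls were lost. With the replicate number as a block in the limma fit, 0 members passed. In that fit, 90 members and 4609 of all 27250 features had an unadjusted p under 0.05. The rule chose the members on this contrast, so their 90 is no support.

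Most members could not be given a gene name. The array identifiers were matched, without versions, to current RefSeq transcripts of the GRCr8 annotation, and 9 of the 77 XM and XR members (11.7%) had a current symbol, against 11.6% of all 14929 XM and XR features. The files hold no gene name or description column, and the table used here pairs no Ensembl identifiers, so the 25 ENSRNOT members keep their identifiers. By class, 32 members were model mRNAs, 45 were model non-coding RNAs and 25 were Ensembl transcripts.

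Adgrd1, an adhesion G protein-coupled receptor, was measured by the model XM_001070157. Its processed signals were 25.6 and 36.6 in miR-125a-3p, against 8.64 and 7.98 in miR-neg, a log2 difference of 1.89. The miR-neg values were not well above background. Raised to the lowest signal called well above background on each array, they left Adgrd1 1.71-fold higher in miR-125a-3p. This bound was 1.44-fold from miR-125a-3p replicate 1 alone and 2.02-fold from replicate 2 alone. Both miR-125a-3p arrays were higher than both miR-neg arrays, but all 4 values were close to that lowest called signal.

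Csf1, the macrophage colony-stimulating factor, is a secreted ligand that microglia and macrophages need for survival. Its model transcript XM_008761429 had signals of 19.0 and 23.2 in miR-125a-3p and of 8.37 and 11.4 in miR-neg, a log2 difference of 1.10, or 1.17-fold by the bound. The curated Csf1 transcript NM_023981, measured by another probe, had signals of 1284 and 1474 in miR-125a-3p and of 1098 and 1051 in miR-neg. Its groups did not overlap either, and its log2 difference was 0.36. As the model transcript was not detected in miR-neg and its scanner errors did not separate the groups, the sizes at the 2 probes are not set against each other. Csf1r, the receptor for Csf1, was above background on 1 of 4 arrays, at log2 levels of -4.22 and -6.09 in miR-125a-3p and of -6.43 and -6.64 in miR-neg.

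Col6a5 encodes a chain of collagen VI, a matrix protein that forms beaded filaments. Its model XM_008766594 was above background on all 4 arrays, with signals of 50.3 and 46.5 in miR-125a-3p, against 27.0 and 18.9 in miR-neg, and a log2 difference of 1.10. The replicates of each group lay nearer to each other than to the other group. Dchs2, an atypical cadherin of the dachsous family, which in fly takes part in planar cell polarity, had signals of 32.1 and 25.4 in miR-125a-3p. In miR-neg it had 17.9 and 9.73, neither well above background, which gave a log2 difference of 1.12 and a bound of 1.59-fold. The gap between the higher miR-neg value and the lower miR-125a-3p value of Dchs2 was smaller than the sum of the scanner's errors for those spots.

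Fam135b was above background on all 4 arrays, with 80.1 and 51.6 in miR-125a-3p and 32.7 and 30.0 in miR-neg, a log2 difference of 1.04. The protein-coding model 4930519F16Rikl had 15.5 and 46.8 in miR-125a-3p and 4.58 and 6.57 in miR-neg (a log2 difference of 2.30). It was above background on 0 miR-neg arrays, and its bound was 1.5-fold. From miR-125a-3p replicate 1 or replicate 2 alone, the bound of 4930519F16Rikl was 0.872-fold or 2.58-fold. The miR-125a-3p arrays of this model differed from each other by 1.57 on the log2 scale. The other 3 named members, LOC103693103, LOC100909928 and LOC102553018, were uncharacterised non-coding RNA loci with log2 differences of 2.48, 1.13 and 1.00. LOC103693103 and LOC100909928 were above background on 0 miR-neg arrays, with bounds of 1.63-fold and 1.30-fold. From miR-125a-3p replicate 1 or replicate 2 alone, these were 1.93-fold or 1.38-fold for LOC103693103 and 0.981-fold or 1.73-fold for LOC100909928. No role is given for the 3 loci in the annotation used here.

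The members above background on all 4 arrays numbered 18, and 9 of them had replicates within 0.5 of each other on the log2 scale in both groups. These 9 were XR_600911, ENSRNOT00000051159, XM_006223561, ENSRNOT00000047043, the Col6a5 model, XM_008760464, XM_006223955, XR_085980 and XM_008768871. XR_600911, a model non-coding RNA, had signals of 187 and 187 in miR-125a-3p and of 73.0 and 66.8 in miR-neg, a log2 difference of 1.43. It was printed in 10 spots on each array, whose signals ran from 164 to 205 and from 175 to 208 in miR-125a-3p and from 56.4 to 81.2 and from 59.3 to 77.9 in miR-neg. The lowest of its 20 miR-125a-3p spots was thus above the highest of its 20 miR-neg spots. ENSRNOT00000051159 also had 10 spots an array, at 111 to 137 and 111 to 132 in miR-125a-3p and 38.1 to 62.7 and 50.3 to 66.7 in miR-neg. Its difference was 1.23, and again the spots of the groups did not overlap. ENSRNOT00000047043 had 9 and 10 unflagged spots in miR-125a-3p, at 52.4 to 63.2 and 62.0 to 95.5, and 10 each in miR-neg, at 18.7 to 36.0 and 24.5 to 44.4. Its difference was 1.12, without overlap between the spots of the groups. Spots of 1 array share a sample, so they describe the measurement and not the replicates.

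XM_006223561 had signals of 144 and 146 in miR-125a-3p and of 69.7 and 59.8 in miR-neg, a difference of 1.17. ENSRNOT00000022342 was among the brightest members and had 219.9 and 231 in miR-125a-3p, against 58.0 and 80.1 in miR-neg, a difference of 1.73. Its miR-125a-3p arrays lay within 0.04 of each other and its miR-neg arrays 0.60 apart, and the groups were well separated. XM_006223955 and XM_008760464 also had close replicates, at lower signals. XM_006223955 stood at 74.0 and 76.3 in miR-125a-3p and 39.1 and 34.5 in miR-neg (1.04). XM_008760464 stood at 50.0 and 49.7 in miR-125a-3p and 25.7 and 21.7 in miR-neg (1.08).

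The miR-125a-3p replicates of other members were unequal. In 13 members the gap between the 2 miR-125a-3p arrays was larger than the difference between the groups, and in 26 it was over 1 on the log2 scale. XM_008759032 was the most uneven, with 59.6 and 2888 in miR-125a-3p, against 53.8 and 39.0 in miR-neg. Its difference of 3.18 came from replicate 2, as replicate 1 was close to the miR-neg values. XM_008769851 was uneven the other way, with 209.5 and 40.1 in miR-125a-3p and 29.9 and 34.1 in miR-neg (1.53). XM_008761014 likewise had 280.2 and 80.7 in miR-125a-3p and 66.7 and 66.7 in miR-neg (1.18). In these, replicate 1 was the higher, as it was in XR_590355, with 120.0 and 34.4 in miR-125a-3p and 24.3 and 19.6 in miR-neg (1.56). In the last 3, the log2 difference without replicate 1 of miR-125a-3p was 0.32, 0.26 and 0.64. ENSRNOT00000074172 and XR_339604 were less uneven, with gaps smaller than their differences. ENSRNOT00000074172 had 41.9 and 108 in miR-125a-3p and 22.3 and 20.1 in miR-neg (1.68), and the difference was 1.01 without replicate 2 of miR-125a-3p. XR_339604 had 102 and 51.1 in miR-125a-3p and 31.3 and 33.8 in miR-neg (1.16), and the difference was 0.64 without replicate 1 of miR-125a-3p.

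Over the 102 members, replicate 2 of miR-125a-3p was the higher in 65 and replicate 1 in 37. The median gap between replicates was 0.47 in miR-125a-3p and 0.35 in miR-neg for the members, against 0.10 and 0.12 for all features above background on both miR-125a-3p arrays. In 34 members the replicates lay within 0.5 in both groups. In 36 the lower miR-125a-3p array was at least 1 above the higher miR-neg array, and in 8 it was under 0.25 above it. In 65 members the lower miR-125a-3p signal minus the scanner's own error exceeded the higher miR-neg signal plus its error, and in 37 it did not. The rule already set both miR-125a-3p arrays above both miR-neg arrays, with means at least 1 apart. These counts of separated members therefore describe the selection and are no support.

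**Figure D2:**
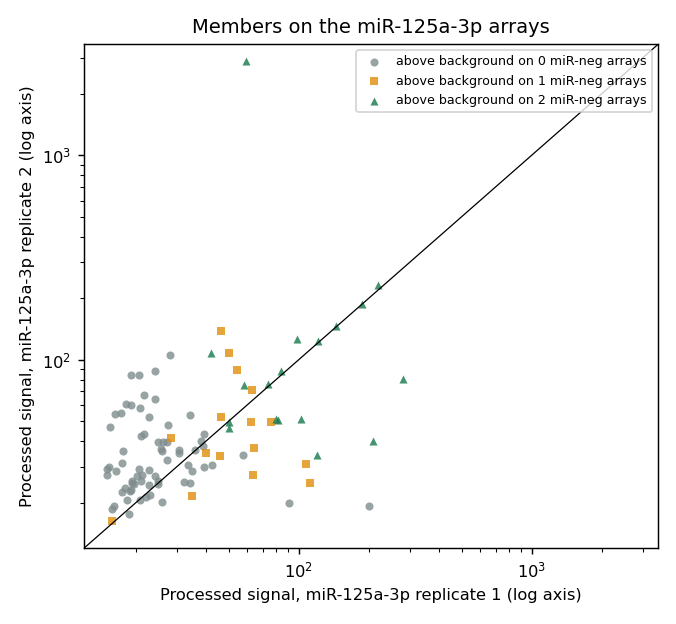
Processed signal of the 102 members in miR-125a-3p replicate 1 (horizontal, log axis) and replicate 2 (vertical, log axis), with the line of equality. Colours give the number of miR-neg arrays on which the member was above background, and 26 members lie more than 1 log2 unit from the line, the farthest being XM_008759032 at 59.6 and 2888.

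Another 4 predicted transcripts met the rule only when spots flagged by the scanner software were kept, and they are not counted as members. Each had 1 spot, flagged as non-uniform in miR-125a-3p replicate 2. ENSRNOT00000050949 had 19.1 and, at the flagged spot, 7578 in miR-125a-3p, against 15.8 and 3.66 in miR-neg, which would be the largest difference of any (5.65). XM_003749480 had 18.5 and 2019 in miR-125a-3p and 12.6 and 3.84 in miR-neg (4.8). In both, the unflagged miR-125a-3p array was near the higher of the miR-neg arrays. ENSRNOT00000008391 and XM_006222309 would have had differences of 1.37 and 1.01.

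The largest log2 differences belonged mostly to members that miR-neg arrays did not detect, where the size depends on values near 0 and the order of members has no meaning. XM_008765369 had signals of 57.6 and 34.3 in miR-125a-3p and of 4.25 and 3.37 in miR-neg, a difference of 3.56, and was 2.48-fold higher by the bound. XR_341716 had 28.1 and 105 in miR-125a-3p and 6.17 and 4.92 in miR-neg (3.31), with a bound of 3.03-fold. XM_006227661 had 24.3 and 88.2 in miR-125a-3p and 8.37 and 7.57 in miR-neg (2.54), with a bound of 2.58-fold. These bounds rest on unequal replicates. From replicate 1 or replicate 2 of miR-125a-3p alone, they were 3.25-fold or 1.89-fold for XM_008765369, 1.59-fold or 5.79-fold for XR_341716, and 1.37-fold or 4.87-fold for XM_006227661.

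XR_593693 had 20.9 and 57.9 in miR-125a-3p and 4.03 and 3.20 in miR-neg (3.28), with a bound of 1.94-fold. XR_594913 had 27.1 and 39.8 in miR-125a-3p and 5.12 and 4.04 in miR-neg (2.86), with a bound of 1.83-fold. ENSRNOT00000073250 had 21.1 and 25.6 in miR-125a-3p and 4.22 and 3.35 in miR-neg (2.63), with a bound of 1.30-fold. In these 3 the miR-neg signals were near the lowest that the arrays hold, and replicate 1 alone gave bounds of 1.18-fold, 1.53-fold and 1.19-fold. Over the 68 members above background on 0 miR-neg arrays, the median bound was 1.64-fold. It reached 2-fold or more in 15 and stayed below that in 53, and in 2 of these it was under 1. With each miR-125a-3p array taken alone, 3 of those 15 reached 2-fold on both arrays (ENSRNOT00000059490, XR_342584 and XR_590076), and in the other 12 at least 1 array stayed below 2-fold. XR_338909, with 199.6 and 19.2 in miR-125a-3p and 14.9 and 13.3 in miR-neg, had the highest bound of 3.45-fold, which was 11.3-fold from replicate 1 alone and 1.06-fold from replicate 2 alone. In 3 members the miR-neg spots were not significant over local background on either array, and all 3 had differences of at least 2.

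A second way to remove background gave smaller differences. Normexp, which models background and adds an offset of 50 to every signal, left all 102 members above 0, with a median of 0.29 and a range of 0.07 to 2.40. Only XM_008759032 (2.40) and ENSRNOT00000022342 (1.04) still reached 1. The offset is larger than the median member signal in either group, which by construction shrinks ratios of dim spots. The median was 0.46 for the 18 members above background on both miR-neg arrays and 0.25 for the 68 above background on neither.

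**Figure D3:**
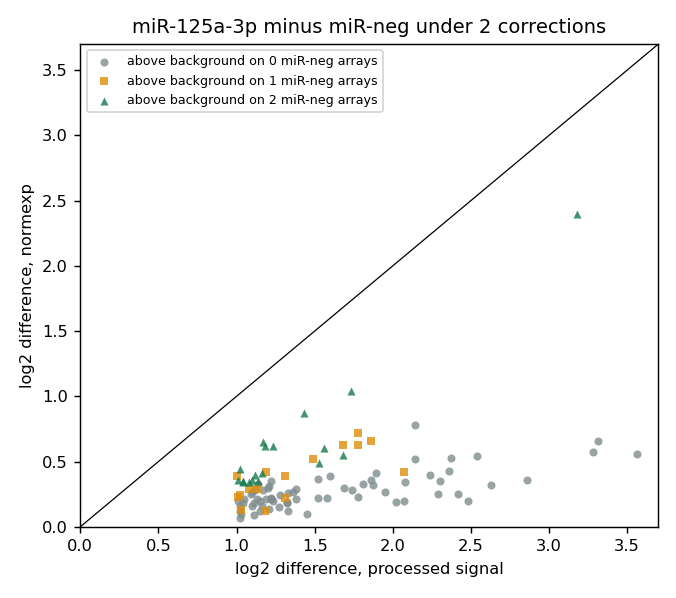
Log2 difference between miR-125a-3p and miR-neg from the processed signal (horizontal) and after normexp (vertical) for the 102 members, with the line of equality. Every point lies below the line, and 2 members stay at 1 or more after normexp.

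Other probes for the same transcript or gene gave a separate reading for 11 members. Together they had 13 further probes, 12 of them for the same accession and 1 for the curated Csf1 transcript. Of these 13 probes, 5 were above background on all 4 arrays, 1 on 3 arrays and 7 on 0 arrays. Those 7 belonged to ENSRNOT00000030090, XM_008764418, XR_590336, ENSRNOT00000039797, XR_589176, ENSRNOT00000067996 and ENSRNOT00000051159, and since they were not well above background their differences and signs are not counted. Of the 6 others, 0 had a difference of 1 or more, 5 lay above 0 and 1 below. The members were selected for high values and the other probes were not.

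XM_001069890, with a member difference of 1.10, had differences of 0.80 and 0.49 at its other probes. Their signals were 84.7 and 78.3 in miR-125a-3p against 50.2 and 44.1 in miR-neg, and 120.4 and 126 in miR-125a-3p against 94.9 and 81.5 in miR-neg. At both of them the groups did not overlap. XM_006223561, one of the most even members (1.17), differed by -0.01 at its other probe, with 73.3 and 74.0 in miR-125a-3p and 76.6 and 71.9 in miR-neg. ENSRNOT00000011386 (1.52) differed by 0.08 at its other probe, with 71.9 and 83.3 in miR-125a-3p and 86.1 and 62.8 in miR-neg. Both of these probes were above background on all 4 arrays and their groups overlapped. The members XM_001069890 and ENSRNOT00000011386 were themselves above background on 0 miR-neg arrays, with bounds of 1.86-fold and 1.21-fold. Their sizes are therefore not set against those of the other probes. ENSRNOT00000051159 (1.23) had another probe above background on 3 arrays, with 18.8 and 25.6 in miR-125a-3p and 22.9 and 10.9 in miR-neg (0.48), and a further probe that was above background on none.

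**Figure D4:**
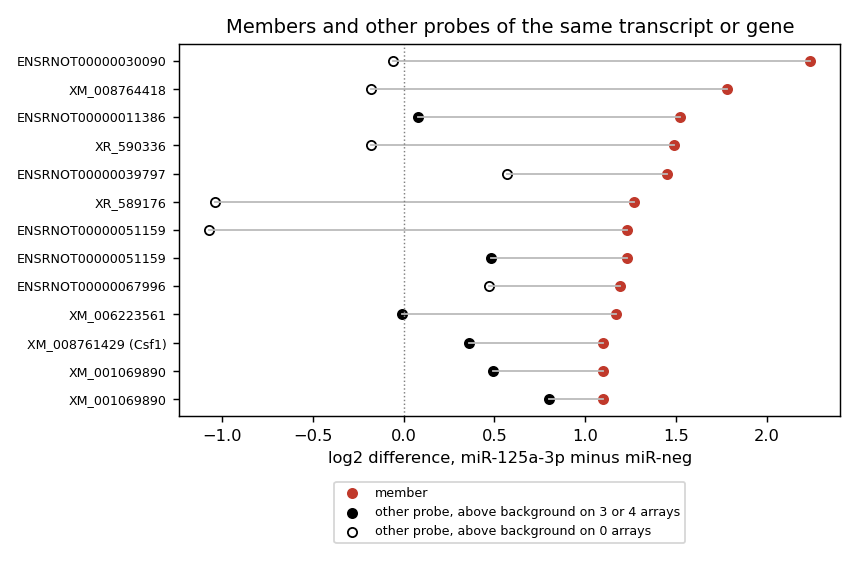
Log2 difference between miR-125a-3p and miR-neg for 11 members (red) and for the 13 other probes of the same transcript or gene (black where above background on 3 or 4 arrays, open where above background on 0). The 6 black points lie below 1, while the rule placed every member at 1 or more. The members XM_001069890, ENSRNOT00000011386 and the Csf1 model were above background on 0 miR-neg arrays, so their positions depend on values near the detection limit.

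The class of the identifier was the remaining property that the doubling did not use. Of features above background on both miR-125a-3p arrays, 0.752% of XM features (32 of 4255), 2.33% of XR features (45 of 1934) and 0.605% of ENSRNOT features (25 of 4129) met the rule. Curated RefSeq transcripts (NM or NR) met the same rule in 1.12% (161 of 14346), and all features in 1.06%. Model non-coding RNAs were thus the class with the highest share, but they were also dimmer, with a median miR-125a-3p level of -3.37 against 0.18 for curated transcripts.

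Split by detection in miR-neg, the shares for features detected on neither array were 31.1% for XM (19 of 61), 28.4% for XR (31 of 109), 31.6% for ENSRNOT (18 of 57) and 30.6% for curated transcripts (55 of 180). Among features detected on both miR-neg arrays they were 0.244% for XM, 0.238% for XR and 0.101% for ENSRNOT, against 0.626% for curated transcripts. Among features detected on 1 miR-neg array, the counts were 3 of 103 for XM, 10 of 143 for XR and 3 of 112 for ENSRNOT, against 19 of 259 for curated transcripts. Detection in miR-neg depends on the change itself, so nothing about the classes is read from this split. In the opposite direction, 80 predicted transcripts were at least halved by the mirrored rule, which was 0.802% of those above background on both miR-neg arrays, against 0.989% doubled of those above background on both miR-125a-3p arrays. The halved shares were 0.791% for XM, 1.53% for XR, 0.496% for ENSRNOT and 0.698% for curated transcripts. Model non-coding RNAs thus had the highest share of these classes in both directions. These shares describe the arrays, and their differences were not tested.

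**Figure D5:**
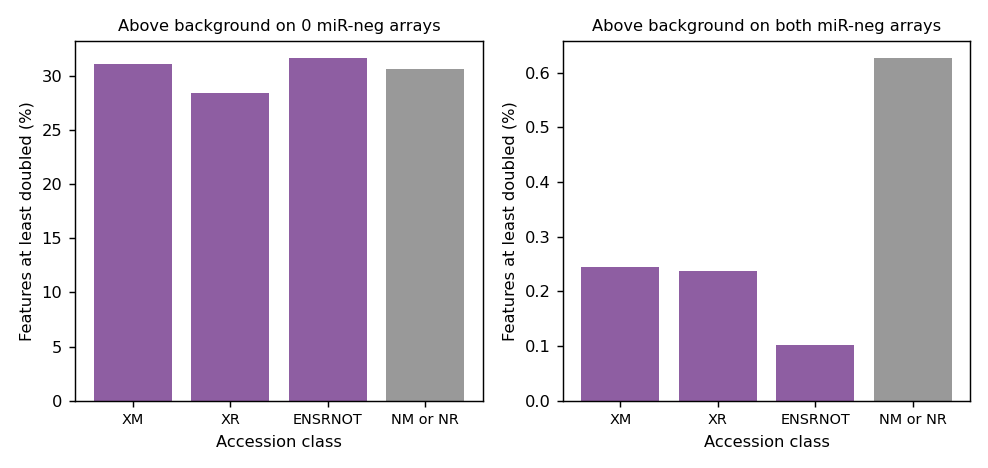
Share of features at least doubled (vertical axes, percent, different scales) among those above background on both miR-125a-3p arrays, by class of identifier. The left panel holds features above background on 0 miR-neg arrays, at 28.4% to 31.6%, and the right panel those above background on both, at 0.101% to 0.626%.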

How the data were processed

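One-colour arrays (Cy3, 100 ng of total RNA) measured 4 samples, 2 per group. The submitters' processing notes name Agilent Feature Extraction 10.7.3.1, and per the file headers the deposited intensities are its processed signals, with background subtracted. The authors' deposited log2 table equalled, for 100% of probes within 0.01, log2 intensity minus 1 constant per array. The design was made on rn4, so no coordinates are given for members.

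Control features were left out, as were outlier-flagged spots. Log2 intensities were averaged over the spots of a probe, and the 75th percentile over probes was subtracted. A probe counted as above background where at least 0.5 of its spots had the flag. ENSRNOT00000039797 on miR-125a-3p replicate 1 and ENSRNOT00000030007 on both miR-125a-3p arrays met this with 1 of 2 spots. The spots of ENSRNOT00000030007 overlapped between the groups. They ran from 13.7 to 18.3 and 14.1 to 18.8 in miR-125a-3p, and from 4.01 to 9.71 and 3.18 to 20.8 in miR-neg. Features above background on at least 2 arrays (27250) were fitted with limma 3.58.1 under R 4.3.3 by lmFit then eBayes (two-sided, adjusted by Benjamini-Hochberg). This fit was tested on simulated data whose noise did not depend on the signal, so that check does not bear on dim members. An exact permutation test cannot go below 0.333 here. The number of arrays limits the precision. Same-numbered arrays had deviations correlated at 0.0539.

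The members, lists and most alternatives were chosen with earlier results of these data known. The text names the 10 largest members detected on all 4 arrays, the 6 largest undetected in miR-neg, the 6 brightest, those next to the doubling, those with another probe (10, plus XM_001069890, chosen after its values were seen) and those with a symbol. The called markers, the 9 even members, the uneven ones and the flagged spots were also chosen after values were seen. So were the members singled out by their bounds or spots. For a member detected on neither miR-neg array, the bound sets its miR-125a-3p mean against the higher, per array, of its own signal and the lowest signal called above background. On miR-neg replicate 2 this lowest signal was 15.9, but XM_006227546 at 19.4 was not called. The bound is therefore approximate and no strict lower limit.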

Additional observations from a re-analysis of the deposited data

How the results depend on the processing

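Normexp on median spot signals (no mean spot signal was used), the 75th percentile over spots keeping flagged spots and the bounds from 1 array were chosen after seeing the data. The 102 members became 2 with normexp (median difference 0.29, not 1.31), 18 when all 4 arrays had to be above background, 180 at a difference of 0.8 and 62 at 1.2. They stayed between 91 and 106 with quantile normalization, median centring, the deposited table, the percentile over spots and flagged spots kept, and all of those found under the first 4 of these were members. With 1 array left out the count ranged from 126 to 491 (357 and 491 without miR-125a-3p replicate 1 or 2, where 1 array meets the demand for detection), 80 to 84 of them members, and the median from 1.30 to 1.40. The 16 members past limma's threshold became 22 with normexp, 24 with median centring, 10 under quantile normalization, 9 on probes above background on all 4 arrays (18 members tested), 42 with a variance trend and 43 at an adjusted p of 0.1. They became 0 without a filter on dim features, with the replicate block (which is also the slide axis that does not follow the group) and with any 1 array left out (0 to 0), where 71, 90 and 65 to 82 members had an unadjusted p under 0.05. The 168 features past it over all became 1753 with normexp, 287 with median centring, 596 on probes above background on all 4 arrays, 2169 with a variance trend, 1024 at 0.1, and 0 without a filter, with the replicate block and with any 1 array left out (0 to 0), with 4565, 4609 and 3110 to 4856 at an unadjusted p under 0.05. Under quantile normalization, 120 features passed over all. The features tested numbered 25033 on probes above background on all 4 arrays, 45533 without a filter and 27250 otherwise. With 2 pairs, the correlation leaves the pairing by number undecided. Of 306 repeats on 34 named members, 264 moved by less than the replicate SD, 42 moved by more (31 of these with normexp), and 0 changed sign. With 1 array left out no sign could change, since the rule set both miR-125a-3p arrays above both miR-neg arrays. Uneven members have a large SD, so the 264 hold large shifts. XM_008759032 went from 3.18 to 0.4 without miR-125a-3p replicate 2, and XM_008761014 from 1.18 to 0.26 without replicate 1. The cause of shifts other than those that follow from fewer arrays or features was not tested.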
